A study of Mus musculus with 8 samples.

Results

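Toll-like receptors, their co-receptors and their shared adaptor were followed across all clusters, tissues and times of a single-cell RNA-seq series of mouse brain leukocytes after stroke. The group was a list of 9 genes (Cd14, Ly96, Tlr4, Tlr2, Tlr1, Tlr7, Tlr9, Tlr13 and Myd88) chosen by name, out of 30406 genes present in the gene lists of all libraries. The series holds 8 droplet-based 10x libraries of leukocytes that carried CD45 but were not stained by a CD45 antibody given intravenously shortly before perfusion, so that blood cells were gated out. Brain parenchyma, pia mater and dura mater of control C57BL/6 mice gave 1 library each, and after transient middle cerebral artery occlusion (MCAO, a filament model of ischemic stroke) there were 2 brain libraries at 24 h, 1 brain library at 72 h, and 1 library each of pia and dura at 24 h. All animals were adult wild-type males of 10 to 16 weeks with no transgene, per the study's methods. The occlusion lasted 30 or 45 min, and which duration belongs to which library was not given in the sources used here. The study's reporting summary gives a pooled total for each compartment, but not how many mice went into each library. The controls are called naive in one place and sham-operated in another, so the neutral word control is used. One control library has a title naming brain parenchyma but a source and tissue naming pia mater, and was analysed with pia.

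Toll-like receptors recognize microbial products and molecules released by damaged cells. Tlr4 binds lipopolysaccharide at the cell surface together with MD-2, the product of Ly96, and CD14 hands ligands to this complex and to Tlr2. Tlr2 pairs with Tlr1 or Tlr6 to sense lipoproteins. Tlr7, Tlr9 and Tlr13 sit in endosomes, where they detect single-stranded RNA, unmethylated DNA and bacterial ribosomal RNA, and they need the chaperone Unc93b1 to get there. All of these receptors signal through the adaptor Myd88 to NF-κB and interferon regulatory factors. Macrophages, microglia and neutrophils are among the cells known for such receptors, and B cells are known for Tlr7 and Tlr9.

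Values are unique molecular identifiers (UMIs, one per captured transcript) summed over the cells of a cluster in a library and divided by the sum's UMIs over all shared genes and scaled to counts per 1000000 (CPM). The libraries held 6591898 to 20754181 UMIs, and 32457 of 36854 barcodes carried one of 21 cluster names assigned by the authors. Below, the macrophage clusters are CAM_1, CAM_2, Macro_1 and Macro_2, the microglia clusters Micro_1 to Micro_3 and stress_Micro, and the dendritic clusters mDC1 and mDC2, and SAMC keeps the authors' name for stroke-associated myeloid cells. Cluster membership was itself derived from these counts, so differences between clusters are not independent of the naming. Up to 32 annotated barcodes were shared by a pair of libraries, at most 0.816% of the smaller one. Counting intervals cover counting error only.

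Brain 24 h replicate 2 stood apart from its replicate. It had a median of 1071.5 UMIs per annotated cell against 1688.5 in replicate 1 and differed from it in several members, so the tests of stroke and tissue are given with and without it. This library and brain at 72 h were listed with the shorter of the 2 gene lists and the other 6 libraries with the longer one. Brain at 72 h was also made with another kit than its control, so time, kit and gene list cannot be told apart in its values. Likewise, gene list and kit cannot be told apart from the difference between the 24 h replicates. The same holds for results without replicate 2. Markers of other cell types differed inside the macrophage clusters between tissues and, in brain, between control and stroke. The summed level of 4 microglia markers (Tmem119, P2ry12, Sparc and Cx3cr1) in these clusters was 11480.5 CPM in control brain, 3538 CPM in brain 24 h replicate 1, 1226 CPM in replicate 2 and 698 CPM at 72 h, against 254 to 439 CPM in pia and dura. Markers of border macrophages (Pf4, Lyve1, Mrc1, Cd163 and Ms4a7) ran the other way, from 15.2 to 661 CPM in the 4 brain libraries and from 2940.3 to 3904 CPM in pia and dura, and Lyve1 was at 0 in control brain and in brain 24 h replicate 1. The cluster named Granulo_2 held 122283 to 307755 CPM of 6 neutrophil markers. Granulo_1 held 22.1 to 3384 CPM of them but 731 to 7346 CPM of monocyte markers, which goes against its name, so it is called by its label only.

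Cd14, the GPI-anchored co-receptor that presents lipopolysaccharide, was the most deeply counted member with 217427 UMIs. It lies on chr18:36725067-36726798 on the minus strand (GRCm38, GENCODE M21). Over all annotated cells it was at 801 CPM in control brain, 6527 and 722 CPM in the brain 24 h replicates, 183 CPM in brain at 72 h, 6825 and 7484 CPM in control and 24 h pia, and 2656 and 4311 CPM in control and 24 h dura. The 2 brain libraries at 24 h thus lay on either side of the control, and pia was high at both times. Among clusters the means over libraries were highest in SAMC (8955 ± 9452 CPM, SD, n = 4), CAM_1 (7638 ± 5321, n = 8), Macro_2 (6305 ± 4858, n = 8) and stress_Myeloid (6099.8 ± 5661, n = 3). They were intermediate in Granulo_1 (4613 ± 3689.7, n = 7), Granulo_2 (3961 ± 4772, n = 6) and Micro_2 (2922 ± 3849, n = 6). None of these neighbors in the order differed by more than their SDs. The means cover different sets of libraries, as SAMC rests on 4 stroke libraries and CAM_1 and Macro_2 on all 8. In brain at 72 h SAMC lay below both the macrophage and the microglia clusters, as given below. Means were lowest in NK (116 ± 87.6, n = 6) and gdTc (111 ± 104, n = 4).

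**Figure D1:**
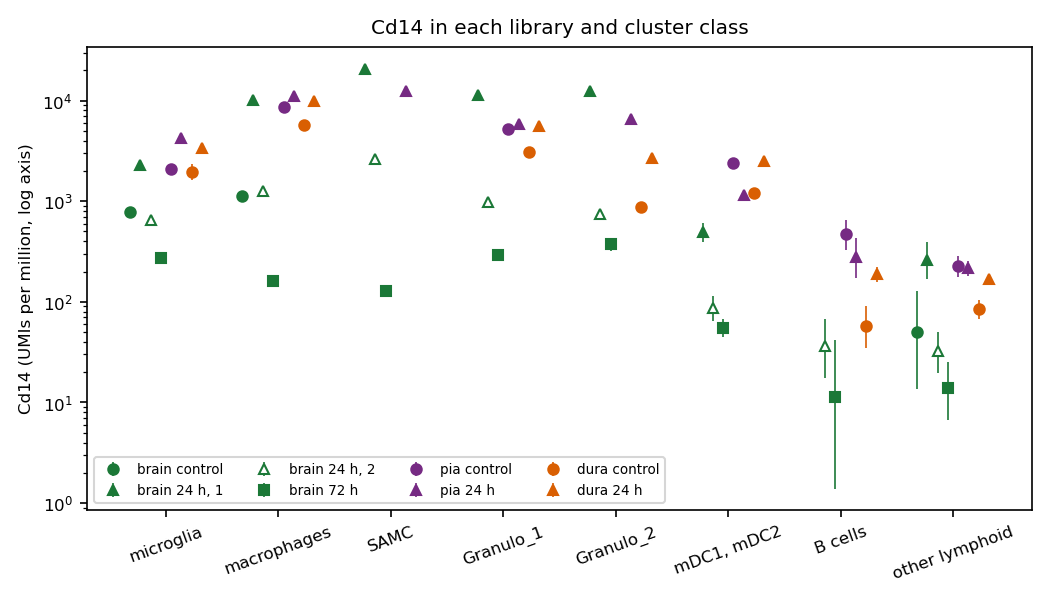
Cd14 level in CPM (log axis) in each library, by class of clusters, with 95% exact Poisson intervals; points are libraries and sums of under 30 cells are left out. Brain at 72 h was the lowest library in the macrophage, microglia and SAMC sums, at 162, 273 and 128 CPM, and the T, NK, gdTc and ILC2 cells (other lymphoid) stayed at or under 262 CPM.

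Within the classes the libraries kept much of this order. Cd14 in the macrophage clusters was at 1131 CPM in control brain, 10163 and 1264 CPM in the 24 h brain replicates, 162 CPM at 72 h, 8690.0 and 11164 CPM in control and 24 h pia, and 5713 and 9805 CPM in control and 24 h dura. In the microglia clusters the same libraries held 781, 2276, 646, 273, 2088, 4267, 1960.5 and 3339.9 CPM. In SAMC brain 24 h replicate 1 held 20735 CPM, replicate 2 held 2631, brain at 72 h held 128 and pia at 24 h held 12324 CPM. The T, NK, gdTc and ILC2 clusters together, which should lack CD14, followed the libraries as well, with 262 CPM in brain 24 h replicate 1, 225 and 215 CPM in pia, and 13.8 CPM in brain at 72 h. Their level was lower than that of the macrophage clusters of the same library in 8 of 8 libraries, by 5.15 ± 0.86 (SD, n = 8) on the log2 scale. The part of RNA from outside the cells in any of these sums was not tested.

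The share of cells with a Cd14 UMI was taken after thinning each cell to 1000 UMIs and leaving out shallower cells. In the macrophage clusters of brain this left out 84 of 440 cells in the control and 67 of 1497 at 72 h. In the 24 h replicates it left out 90 of 993 and 135 of 356 cells. The kept cells of replicate 2 had a median of 2941 UMIs, against 1407 in all of its macrophage cells. Of macrophage cells 55.3% of cells in control brain (95% exact binomial interval 50.0 to 60.6), 83.3% and 46.2% in the brain 24 h replicates and 15.5% (13.7 to 17.5) at 72 h had one. The shares were 90.6% and 92.9% in pia and 82.0% and 89.8% in dura. The T, NK, gdTc and ILC2 cells of the same libraries gave 0.840% to 22.0% as background, at median depths of 912 to 2122.5 UMIs against 1407 to 3164 in the macrophage clusters. Without thinning, the macrophage shares ran from 33.3% at 72 h to 93.4% in dura at 24 h.

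Ly96, which encodes the MD-2 partner of Tlr4, lies on chr1:16688051-16709611 (plus strand, 6 exonic blocks). Its means were highest in CAM_1 (90.0 ± 72.6 CPM, SD, n = 8), CAM_2 (87.9 ± 39.5, n = 8) and Macro_2 (66.0 ± 36.0, n = 8) and lowest in ILC2 (7.32 ± 4.24, n = 5), and none of the first 3 was apart from the next beyond both SDs. Its macrophage level was 86.2 CPM in control brain, 42.3 and 21.2 CPM in the 24 h replicates, 29.3 CPM at 72 h, 99.3 and 76.0 CPM in control and 24 h pia, and 145 and 108 CPM in control and 24 h dura. Each stroke library lay below the control of its tissue.

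Tlr4, the lipopolysaccharide receptor itself, lies on chr4:66827584-66930284 (plus strand) and was sparse, with 1361 UMIs in all cells. It was highest on average in CAM_2 (41.6 ± 23.8 CPM, n = 8), Granulo_2 (36.0 ± 34.5, n = 6) and Micro_2 (32.0 ± 22.9, n = 6), which did not differ beyond their SDs, and no UMI was found in Mast, gdTc or Tc sums. Among macrophages it was at 54.4 CPM in control brain, 26.2 and 20.1 CPM in the 24 h replicates, 10.1 CPM at 72 h, 36.7 and 19.4 CPM in control and 24 h pia, and 22.5 and 18.7 CPM in control and 24 h dura. Control brain was the highest library and brain at 72 h the lowest.

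Tlr2, the receptor for lipoproteins, lies on chr3:83836272-83841767 (minus strand, 3 exonic blocks). Over all annotated cells it was at 58.9 CPM in control brain, 244 and 182 CPM in the 24 h replicates, 137 CPM at 72 h, 537 and 539 CPM in pia, and 232 and 264 CPM in dura. The cluster means, taken over different sets of libraries, were highest in stress_Myeloid (1019.5 ± 693 CPM, n = 3), Macro_2 (534 ± 332, n = 8), Micro_3 (425 ± 207, n = 6) and CAM_1 (415 ± 212, n = 8) and lowest in ILC2 (4.68 ± 4.98, n = 5). Granulo_1 (359.5 ± 155, n = 7) and SAMC (321 ± 218, n = 4) followed, and neighbors among these 6 overlapped within their SDs. The stress_Myeloid mean rests on 237 CPM in brain 24 h replicate 2 and 1267 and 1555 CPM in control and 24 h pia, and in the brain library Micro_3 (442 CPM) and CAM_1 (366 CPM) were higher.

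Tlr2 in the macrophage clusters was at 116 CPM in control brain, 359.6 and 239.6 CPM in the 24 h replicates, 119.6 CPM at 72 h, 639.7 and 786 CPM in pia, and 488 and 624 CPM in dura. The 4 brain libraries lay below the 4 libraries of pia and dura without overlap. Tlr13 took the opposite order in the same clusters, with 80.1, 120.3, 83.6 and 76.0 CPM in control brain, the 24 h replicates and 72 h, 34.8 and 36.9 CPM in pia, and 29.8 and 33.4 CPM in dura. Here every brain library lay above every pia and dura library. The share of macrophage cells with a Tlr2 UMI after thinning ran from 7.58% (5.06 to 10.8) in control brain to 44.9% (42.6 to 47.3) in pia at 24 h, with 0% to 2.22% in lymphoid cells of the same libraries.

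Because Tlr2 and Tlr13 differed in this way, and Tlr1 is the partner of Tlr2, the bases just upstream of these 3 genes are given. They were taken from RefSeq on GRCm38.p6 and cover the bases that lie before both the RefSeq start and the outermost GENCODE exon. They are written 5′ to 3′ on the strand of the gene. Capitals mark letters of 3 motifs that were searched on both strands in the 250 bases before the RefSeq start: TGANTCA (AP-1-like), GGNNNTTCC (kB-like) and AGGAAG (PU.1-like). Of 32851 promoter windows of all genes, 6.75%, 15.7% and 29.5% held them. Promoter windows were matched for Tlr2, Tlr1, Tlr9, Tlr13 and Myd88, 5 of the 9 members. The windows shown are Tlr2, chr3:83841768-83841858, minus strand, 91 bases; Tlr1, chr5:64933564-64933808, minus strand, 245 bases; and Tlr13, chrX:106143025-106143203, plus strand, 179 bases.
Tlr2: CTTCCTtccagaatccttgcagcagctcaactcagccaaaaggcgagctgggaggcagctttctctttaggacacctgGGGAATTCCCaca
Tlr1: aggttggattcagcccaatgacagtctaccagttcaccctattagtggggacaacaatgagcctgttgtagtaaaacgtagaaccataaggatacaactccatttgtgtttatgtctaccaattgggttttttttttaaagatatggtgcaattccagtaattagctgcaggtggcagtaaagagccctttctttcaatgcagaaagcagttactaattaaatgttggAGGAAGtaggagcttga
Tlr13: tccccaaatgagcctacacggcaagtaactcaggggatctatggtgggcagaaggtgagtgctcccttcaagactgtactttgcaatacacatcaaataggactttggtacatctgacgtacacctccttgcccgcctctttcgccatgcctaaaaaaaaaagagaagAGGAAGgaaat
The Tlr2 window held a pair of overlapping kB-like matches, one on each strand, at 172 and 171 bases before the start, and a PU.1-like match at 250 bases. The Tlr1 window shown held a PU.1-like match at 22 bases and Tlr13 one at 82 bases, and neither held a kB-like match. A second Tlr1 window, not shown, held 0 matches of each of the 3 motifs. A match of letters is a description of the sequence and not a bound site.

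Tlr1, which lies on chr5:64924679-64933563 (minus strand), had 894 UMIs and its highest cluster means in SAMC (29.0 ± 5.33 CPM, n = 4), stress_Micro (27.4 ± 14.4, n = 2) and Micro_3 (26.1 ± 15.4, n = 6), which did not differ beyond their SDs. These means cover different sets of libraries. In the brain 24 h replicates Tlr1 was at 37.4 and 46.6 CPM in Micro_3 and at 33.5 and 32.8 CPM in SAMC. At 72 h it was at 22.0 CPM in Micro_3 and 22.1 CPM in SAMC, and in pia at 24 h at 6.97 and 27.4 CPM. In the macrophage clusters it spanned 10.6 to 28.5 CPM, with all 4 brain libraries at 19.7 CPM or more and all pia and dura libraries at 14.0 CPM or less. In Granulo_2 it spanned 0 to 7.65 CPM. Tlr6, the other partner of Tlr2, spanned 5.25 to 19.7 CPM in the macrophage clusters.

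Tlr7, the endosomal receptor for single-stranded RNA on chrX:167304929-167330558 (minus strand), was led by microglia. Its means were 132 ± 35.4 CPM in Micro_2 (n = 6), 127 ± 33.3 in stress_Micro (n = 2), 95.05 ± 50.1 in Micro_1 (n = 7) and 92.4 ± 43.6 in Micro_3 (n = 6), followed by CAM_1 with 84.0 ± 32.0 (n = 8), and these neighbors overlapped within their SDs. In the microglia clusters Tlr7 was at 139 CPM in control brain, 133 and 159 CPM in the 24 h replicates, 76.9 CPM at 72 h, 102 and 53.5 CPM in control and 24 h pia, and 106 and 22.5 CPM in control and 24 h dura. The 3 lowest libraries were brain at 72 h and the stroke libraries of pia and dura. The dura values rest on 7 UMIs in the control (95% counting interval 42.8 to 219 CPM) and 3 UMIs at 24 h (4.63 to 65.7 CPM). Brain at 72 h and dura at 24 h are also the libraries stated to be of kit version 3. After thinning, 12.7% of microglia in control brain and 6.26% at 72 h had a Tlr7 UMI, against 2.00% (1 of 50 cells) and 0.280% of lymphoid cells. Thinning to 1000 UMIs left out 162 of 3733 microglia in control brain and 484 of 1027 at 72 h. Thinned to 500 UMIs, with fewer cells left out, the microglia shares were 6.58% and 4.20%.

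Tlr13, the receptor for bacterial ribosomal RNA on chrX:106143204-106160493 (plus strand), had its highest mean in SAMC (114 ± 41.6 CPM, n = 4). Macro_1, with enough cells in brain at 72 h alone, was at 99.4 CPM. CAM_1 (76.0 ± 47.4, n = 8), Micro_1 (73.6 ± 44.0, n = 7) and Granulo_2 (71.2 ± 50.9, n = 6) followed, within their SDs. In SAMC it was at 133 and 160.1 CPM in the brain 24 h replicates, 99.8 CPM at 72 h and 63.9 CPM in pia at 24 h, so that brain lay above pia in this cluster too. In the same libraries CAM_1 held 130, 146, 111 and 32.8 CPM of Tlr13, so SAMC was not the higher of these at 72 h.

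Tlr9, the DNA receptor on chr9:106222598-106226883 (plus strand), was close to undetected. There were 66 UMIs in all annotated cells, of which 35 came from brain at 72 h and 20 from brain 24 h replicate 2. The library levels spanned 0 to 2.97 CPM, and the 0 UMIs of control pia allow up to 0.517 CPM. B cells, which are known for Tlr9, gave at most 2 UMIs in a library, and the dendritic clusters gave at most 5. Tlr9 passed the filter on low counts in no comparison, so no test of it was made.

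Myd88, the adaptor shared by these receptors, lies on chr9:119335934-119341411 on the minus strand, where its annotated bases overlap Slc22a14 on the same strand and Acaa1a on the other. The effect of this overlap on its counts was not tested. Macro_1, with enough cells in 1 library, had 146 CPM, stress_Myeloid 127 ± 101 (n = 3) and mDC2 120.4 ± 55.6 (n = 6), and the lowest mean was 22.9 ± 8.74 CPM in ILC2 (n = 5). Macrophages spanned 55.8 to 124 CPM, and the dendritic clusters spanned 71.1 to 147 CPM.

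**Figure D2:**
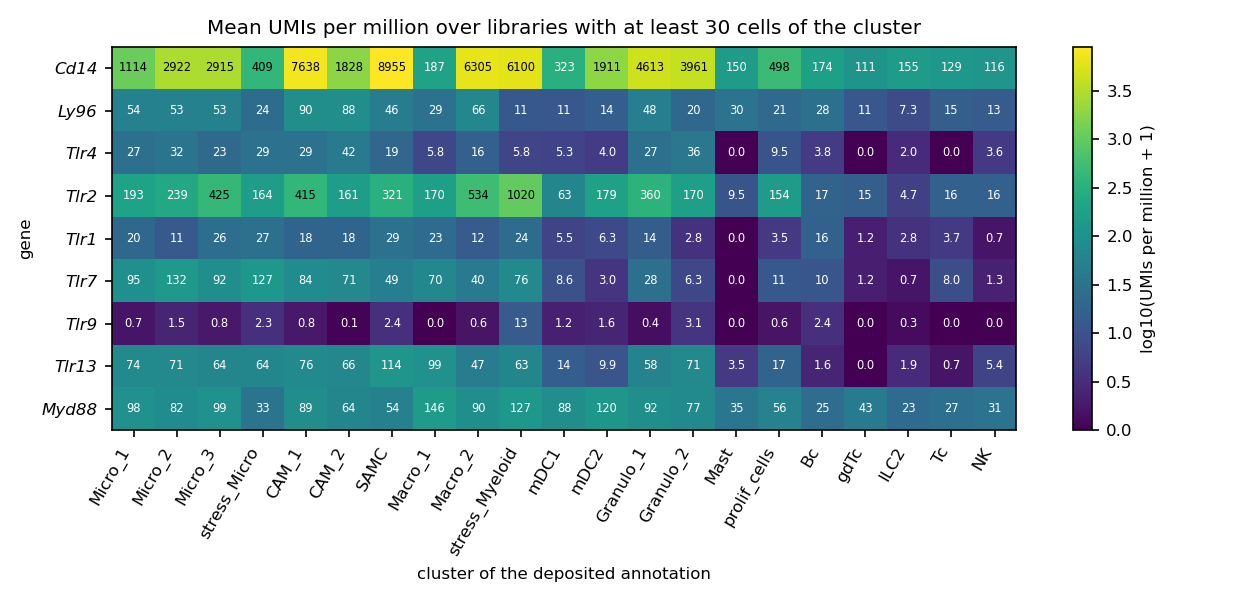
Mean level of each member over libraries for every cluster, with the value printed in CPM and the color on the scale log10(CPM + 1); a cluster counts where a library held at least 30 of its cells. Myeloid clusters carried the receptors, Cd14 reached 8955 CPM in SAMC, and Tlr9 stayed at or under 12.9 CPM in every cluster.

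The 112 sums of a library and a cluster with at least 30 cells were used to see which genes varied most like each member (Pearson's r of log2(CPM + 10) over 5836 genes; sums of a library share its depth and its handling, so no test is given). Cd14 was closest to C5ar1 (0.860), the receptor for complement C5a, Tlr2 (0.821) and Ms4a6d (0.790). Tlr2 was closest to Nlrp3 (0.855), an inflammasome sensor, Csf2ra (0.842) and Cd14. Tlr7 was closest to Rin2 (0.906), Pla2g15 (0.900) and Itgb5 (0.892), and Tlr13 to Slc11a1 (0.868), Sirpa (0.857) and Lamp2 (0.855). For Ly96 these were Selenop (0.750), Smagp (0.746) and Fcgr3 (0.729), and for Tlr4 Fcgr3 (0.753), Lrrc25 (0.731) and Atp6v0b (0.728). Tlr1 was nearest to Slc7a7 (0.710), Ctsl (0.704) and Cd180 (0.703), and Myd88 to Nupr1 (0.732), Csf2ra (0.722) and Tubb6 (0.713). No gene exceeded 0.512 (Mnt) for Tlr9. Among members the highest values were those of Cd14 with Tlr2 (0.82), Tlr7 with Tlr13 (0.76) and Tlr4 with Tlr13 (0.72).

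Whether the members differ after stroke was asked first. A ratio of each stroke library to the control of its tissue can be given, but the 3 brain stroke libraries share 1 control and each condition other than brain at 24 h has 1 library. By the stated kits, the ratios of brain at 72 h and of dura also set kit version 3 against version 2. The barcode overlap, given below, does not follow the stated kit of dura at 24 h. Those of brain 24 h replicate 2 set the shorter gene list against the longer one. In the microglia clusters Tlr2 was at 52.7 CPM in control brain, 157 and 219 CPM in the 24 h replicates, 258 CPM at 72 h, 283 and 509 CPM in control and 24 h pia, and 182 and 479 CPM in control and 24 h dura. It was higher than the control of its tissue in 5 of 5 stroke libraries, by 0.85 to 2.29 on the log2 scale. The microglia clusters were not alike across tissues, with 5747 to 15587 CPM of the 4 microglia markers in brain, 5662 and 2836 CPM in control and 24 h pia, and 1003 and 577 CPM in control and 24 h dura. Border macrophage markers were at 2.78 to 30.5 CPM in brain, 700.3 and 567 CPM in pia and 3647 and 1925 CPM in dura, whose microglia sums hold 51 and 76 cells. The part of this makeup in the ratios was not tested. Ly96 in microglia was lower in 5 of 5, with log2 ratios of -2.69 to -0.68, and Tlr4 was lower in 5 of 5, with -3.61 to -0.62. The Tlr4 values of microglia outside the brain rest on few UMIs, namely 6 and 1 in control and 24 h dura and 3 in pia at 24 h.

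**Figure D3:**
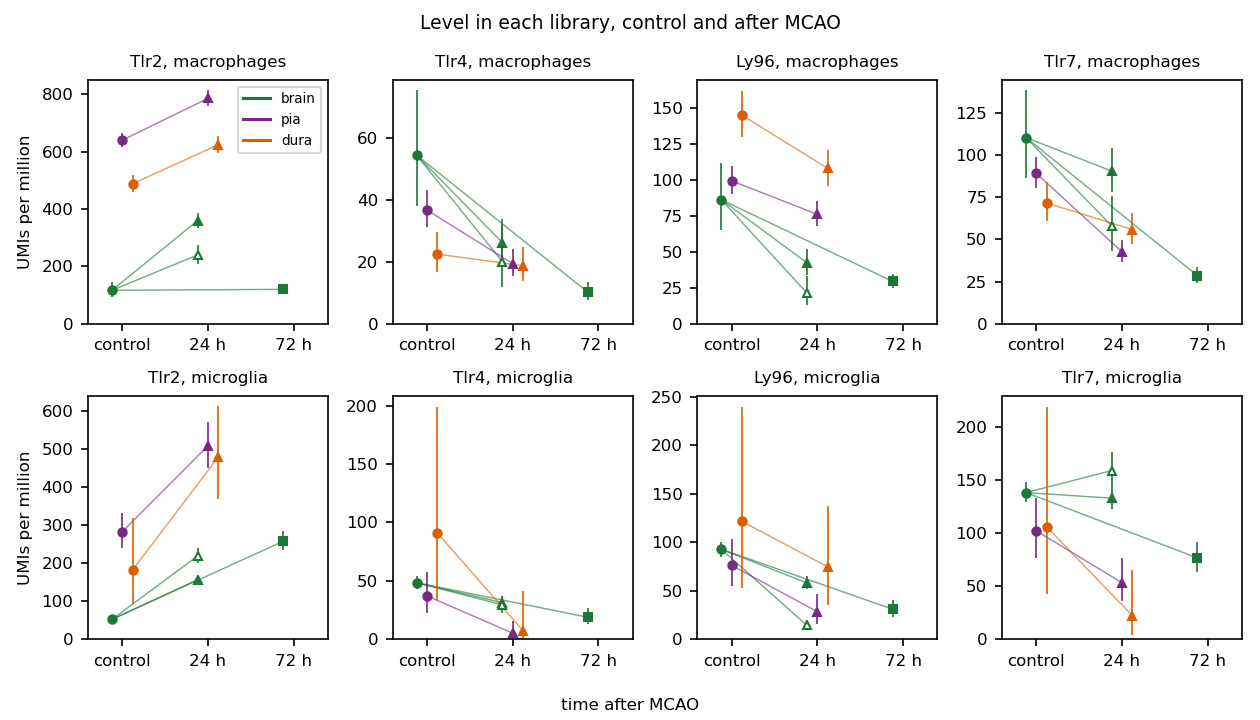
Levels of Tlr2, Tlr4, Ly96 and Tlr7 in CPM (linear axes from 0) by time after MCAO in the macrophage (top) and microglia clusters (bottom), with lines joining each tissue's control to its stroke libraries, 95% exact Poisson intervals, and brain 24 h replicate 2 as an open triangle. Microglial Tlr2 was above the control in 5 of 5 stroke libraries, and Ly96 and Tlr4 were below it in 5 of 5. Brain at 72 h and dura at 24 h are stated to have been made with another kit than their controls.

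In the macrophage clusters the stroke libraries of brain gave Cd14 log2 ratios of 3.17, 0.16 and -2.80 for 24 h replicate 1, replicate 2 and 72 h, against 0.36 in pia and 0.78 in dura. The first and the last therefore had opposite signs in the same tissue. Ly96 was lower than control in 5 of 5 libraries, with log2 ratios of -2.02 to -0.39. Tlr4 was lower in 5 of 5 as well (-2.43 to -0.26), as was Tlr7 (-1.95 to -0.29), while Tlr2 was higher in 5 of 5 (0.04 to 1.63). The 24 h brain libraries differed in their share of monocyte markers within these clusters too, with a summed 95.5 CPM in replicate 1 and 1268 CPM in replicate 2, and brain at 72 h had 1517 CPM. The microglia markers of these sums were highest in control brain (11480.5 CPM) and lower in each brain stroke library, as given above. The part of such differences in the members' levels was not tested.

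The libraries at 24 h were then tested against the controls with tissue as a covariate (7 libraries, 3 residual degrees of freedom). Neither kit nor gene list was a covariate. Of these libraries dura at 24 h alone is stated to be of kit version 3, and brain 24 h replicate 2 alone has the shorter gene list. Replicate 2 also shared 0 annotated barcodes with each of the others, and 8 with brain at 72 h, which is not in this fit. Dura at 24 h shared 12 to 27 with each of the others except replicate 2, so the overlap does not follow the stated kits. A gene was called where its adjusted p was below 0.05 and it differed at least 2-fold. Over all annotated cells edgeR's quasi-likelihood test with Benjamini-Hochberg adjustment called 0 of 11945 genes (0%, with 409 at an unadjusted p under 0.05 and 63 called by DESeq2), and none of the 8 members tested. In simulated data for this test edgeR recovered 0% of genes changed 4-fold, so the lack of calls cannot show that the members were unchanged. Cd14 had a log2 fold change of 1.00 ± 0.97 (SE), Ly96 of -0.98 ± 0.49, Tlr4 of -0.93 ± 0.31 and Tlr2 of 0.64 ± 0.49, all with an adjusted p of 0.988, and the remaining members spanned -0.92 to 0.13. In such sums fewer cells of a type and less RNA per cell cannot be told apart. Without brain 24 h replicate 2 edgeR called 52 genes and no member, with 1.17 ± 0.75 for Cd14 (adjusted p 0.446), -0.71 ± 0.14 for Ly96 (adjusted p 0.0649), -0.84 ± 0.16 for Tlr4 (adjusted p 0.0595) and 0.65 ± 0.53 for Tlr2 (adjusted p 0.537).

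Within the macrophage clusters edgeR's quasi-likelihood test called 0 of 9486 genes (0%, with 459 at an unadjusted p under 0.05 and 17 called by DESeq2). In simulated data for this test edgeR recovered 35.5% of genes changed 4-fold. Cd14 had a log2 fold change of 1.16 ± 0.88, Ly96 of -0.87 ± 0.38, Tlr4 of -0.92 ± 0.34, Tlr2 of 0.64 ± 0.40 and Tlr7 of -0.73 ± 0.32, with an adjusted p of 0.945 each. Tlr1, Tlr13 and Myd88 lay between 0.03 and 0.14. For Cd14 the 24 h brain replicates lay 10163 against 1264 CPM with the control at 1131 CPM, a spread between replicates that exceeded the mean difference. Without replicate 2 edgeR called 136 genes and no member, with 1.32 ± 0.54 for Cd14 (adjusted p 0.204), -0.63 ± 0.18 for Ly96 (adjusted p 0.0949), -0.82 ± 0.22 for Tlr4 (adjusted p 0.0818), 0.65 ± 0.26 for Tlr2 (adjusted p 0.180) and -0.65 ± 0.20 for Tlr7 (adjusted p 0.109).

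In the microglia clusters edgeR called 0 of 6847 genes (0%, with 181 at an unadjusted p under 0.05 and 7 called by DESeq2). In simulated data for this test edgeR recovered 24% of genes changed 4-fold. Tlr2 was 1.36 ± 0.40 higher on the log2 scale, Cd14 0.86 ± 0.47 higher, Ly96 differed by -1.27 ± 0.54, Tlr4 by -1.82 ± 0.63 and Tlr7 by -0.76 ± 0.48, with an adjusted p of 1.00 each by Benjamini-Hochberg. Tlr1, Tlr13 and Myd88 lay between 0.05 and 0.47. Without brain 24 h replicate 2 the same test called 141 of 6319 genes (2.23%), 3 of the 8 members among them. Tlr2 was then higher by 1.18 (edgeR adjusted p 0.000651), Cd14 higher by 1.08 (adjusted p 0.00116) and Tlr4 lower, at -1.14 (adjusted p 0.0477), so these calls rest on leaving out 1 library.

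Of the wider pathway, taken as lists of 13 further receptors and receptor partners, 22 adaptors, kinases and transcription factors and 10 inhibitors, no gene was called after stroke in all cells, in macrophages or in microglia. With the recovery in simulated data given above, this lack of calls does not show that these genes were unchanged. The median log2 fold change of the receptor list was -0.51 over all cells, -0.39 in macrophages and -0.32 in microglia, beside 0.06, 0.04 and 0.10 for all genes tested. Unc93b1, the chaperone of the endosomal receptors, differed by -0.80 ± 0.43, -0.76 ± 0.43 and -0.39 ± 0.34 in the same order. The lists of adaptors and of inhibitors had medians from -0.15 to 0.31.

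The same fit compared pia and dura with brain within the macrophage clusters. On the log2 scale Tlr2 was 2.22 ± 0.46 higher in pia (edgeR adjusted p 0.0888) and 1.86 ± 0.45 higher in dura (adjusted p 0.103), and Cd14 was 2.15 ± 1.01 and 1.71 ± 0.98 higher (adjusted p 0.363 and 0.383). Ly96 was 1.22 ± 0.45 higher in pia (adjusted p 0.268) and 1.76 ± 0.45 higher in dura (adjusted p 0.111), whereas Tlr13 differed by -0.94 ± 0.36 and -1.11 ± 0.36 (adjusted p 0.277 and 0.168). None of these passed the threshold, and in simulated data edgeR recovered 14.5% of genes changed 4-fold for pia and 4% for dura. The remaining members spanned -0.49 to 0.91 in pia and -0.60 to 0.76 in dura. As background, edgeR called 66 of 9486 genes in pia (0.696%, 54 higher and 12 lower) and 127 in dura (1.34%, 98 higher and 29 lower). Scaling by library size alone gave 5 higher and 5 lower in pia and 29 higher and 19 lower in dura and moved the median of all genes from -0.12 to -0.55 and from -0.15 to -0.60, and DESeq2 gave 317 higher and 194 lower in pia and 471 and 251 in dura. Tlr2, Ly96, Cd14 and Tlr13 kept their directions under each of these scalings.

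The calls depended on the libraries in the fit and on the tool. Without brain 24 h replicate 2 edgeR called 1941 of 9421 genes in pia (20.6%) and 2352 in dura (25.0%). Tlr2 was then higher by 2.10 in pia and 1.75 in dura (adjusted p 0.00305 and 0.00535), Ly96 was higher by 1.49 in dura (adjusted p 0.00255), and Tlr13 was lower, at -1.09 in pia and -1.25 in dura (adjusted p 0.00708 and 0.00406). Leaving out any other library left 0 genes called in pia and 0 to 10 in dura. With all libraries in, DESeq2 called Tlr2 in pia at 2.22 (adjusted p 0.000332) and in dura at 1.89 (adjusted p 0.00338), and Ly96 in dura at 1.80 (adjusted p 0.0203). The macrophage clusters of brain held far more of the microglia markers and less of the border macrophage markers than those of pia and dura, as given above, so tissue and the makeup of these clusters cannot be told apart. Among the pathway lists no gene was called in pia or dura, and Cd180, a relative of the receptors that binds the Ly86 protein, came nearest with -1.42 ± 0.34 in pia and -1.74 ± 0.35 in dura (adjusted p 0.121 and 0.0667 by edgeR).

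Macrophage and microglia clusters were compared within 8 libraries, with library as a block. The names are those of the clusters, and the marker levels of the 2 classes overlapped over the libraries. The 4 microglia markers summed to 254 to 11480.5 CPM in the macrophage clusters and 577 to 15587 CPM in the microglia clusters. Border macrophage markers summed to 15.2 to 3904 CPM and 2.78 to 3647 CPM. The part of this makeup in the fold changes was not tested. Cd14 was 1.51 ± 0.31 higher in the macrophage clusters on the log2 scale (edgeR adjusted p 0.00299) and was the single member called, against 10.4% of 11048 genes called in all and 5.77% called higher. It was higher in 7 of 8 libraries, the exception being brain at 72 h with 162 CPM in macrophages and 273 CPM in microglia. Tlr2 was 0.89 ± 0.26 higher (adjusted p 0.0210), under the fold of 2 that a call asks for. Ly96 was 0.51 ± 0.21 higher (adjusted p 0.0888), Tlr1 0.40 ± 0.23 higher and Tlr7 differed by -0.35 ± 0.24, while Tlr4, Tlr13 and Myd88 lay between 0.01 and 0.30, none called. Of all genes 637 were called higher and 515 lower, and 466 and 782 when scaled by library size alone.

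Of the pathway, Irf7, an interferon regulatory factor downstream of Tlr7 and Tlr9, was 2.48 ± 0.24 higher in macrophages (edgeR adjusted p 6.33e-07), as was the kinase gene Ikbke (1.56 ± 0.42, adjusted p 0.0102). Tlr12 was lower (-2.13 ± 0.50, adjusted p 0.00498). Ikbke lost its call by DESeq2 (adjusted p 0.0562), without brain 72 h (0.0553) and with kit version 2 (0.0834), and Tlr12 with the longer gene list (0.108). These were 2 higher of 22 adaptors and 1 lower of 9 tested receptors, and the list medians were -0.08 and -0.12 beside -0.02 for all genes. In control brain, where the macrophage clusters held the most microglia markers, Irf7 was at 77.1 CPM in them and 7.04 CPM in the microglia clusters. Unc93b1 was at 1419.6 and 1408 CPM there.

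**Figure D4:**
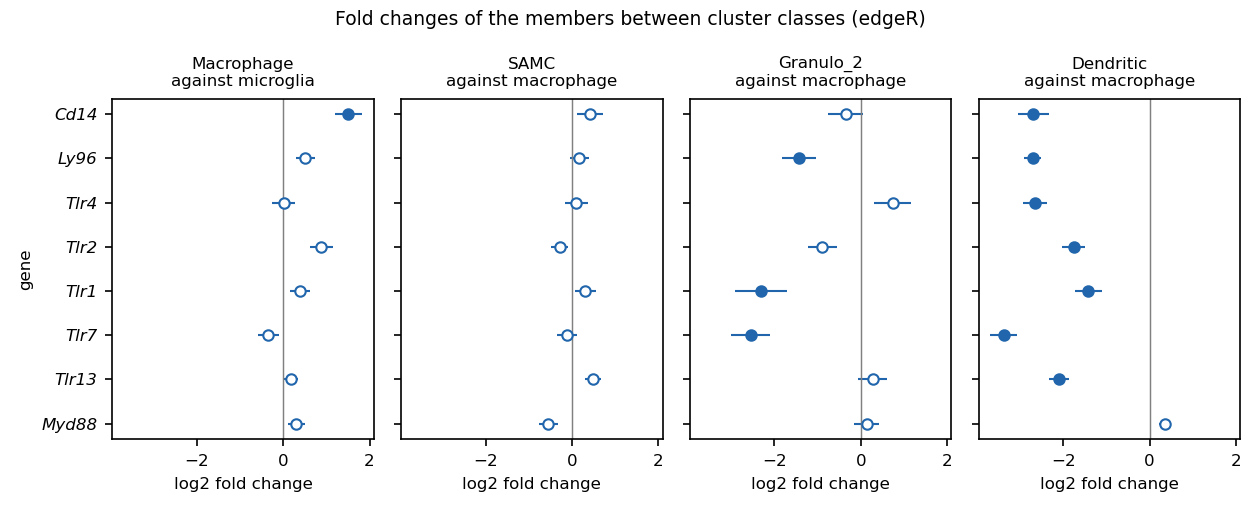
Log2 fold change of each tested member with its standard error in 4 comparisons of clusters within libraries; filled points passed the call (edgeR, adjusted p under 0.05 and at least 2-fold). The dendritic clusters lay lower than the macrophage clusters for 7 of 8 members, and Granulo_2 lay lower for Ly96, Tlr1 and Tlr7. Of these Ly96 and Tlr1 were not called with the libraries of stated kit version 2 alone.

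Granulo_2, the cluster with the neutrophil markers, was compared with the macrophage clusters in 6 libraries. Tlr7 was at 0 CPM in brain 24 h replicate 1, 9.58 CPM in replicate 2, 10.2 CPM at 72 h, 15.3 CPM in pia at 24 h, and 0 and 2.54 CPM in control and 24 h dura, below the macrophage sum of each library. edgeR gave a log2 fold change of -2.55 ± 0.46 for Tlr7 (adjusted p 1.67e-05), -2.32 ± 0.60 for Tlr1 (adjusted p 0.00131) and -1.44 ± 0.39 for Ly96 (adjusted p 0.00280). These 3 of 8 members were called lower, beside 25.9% of 8466 genes called lower and 41.3% called in all, a background against which this count is not read as particular to the members. With the libraries of stated kit version 2 alone, which include brain 24 h replicate 2, Ly96 was at -1.09 ± 0.51 and Tlr1 at -1.78 ± 0.83. Neither was called (edgeR adjusted p 0.0787 and 0.0775). Tlr2 differed by -0.89 ± 0.33 (adjusted p 0.0297), under the fold of 2. Cd14 differed by -0.35 ± 0.40 (adjusted p 0.511) and Tlr4 by 0.74 ± 0.43 (adjusted p 0.159), and Tlr13 and Myd88 lay between 0.14 and 0.28. Scaling by library size alone gave 905 genes higher and 3205 lower in place of 1309 and 2190.

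Levels within Granulo_2 were uneven between libraries. Cd14 was at 12485 CPM in brain 24 h replicate 1, 742 CPM in replicate 2, 373 CPM at 72 h, 6586 CPM in pia at 24 h, and 881 and 2700.1 CPM in control and 24 h dura. Tlr4 was at 93.0, 28.7, 20.4, 61.2, 8.70 and 3.80 CPM in the same libraries, with brain 24 h replicate 1 and pia highest and the dura libraries lowest. Of the pathway 2 of 9 tested receptors and partners were higher, Lbp (5.36 ± 0.53) and Tlr6 (1.35 ± 0.47), and 6 were lower, among them Ly86 (-4.45 ± 0.42), Unc93b1 (-2.10 ± 0.29), Cd180 (-3.42 ± 0.52) and Hsp90b1 (-1.50 ± 0.27), with a list median of -1.50 beside -0.25 for all genes. Tlr6 lost its call under 5 alternatives, with adjusted p-values of 0.0748 to 0.264. Irak3, an inhibitory kinase, was higher (2.14 ± 0.35), as was the bridging adaptor Tirap (2.00 ± 0.39), and Irf5 was lower (-3.23 ± 0.37). In all, 2 of 19 adaptors were called higher and 3 lower, and 1 of 8 inhibitors each way, the one lower being Socs3 (-2.00 ± 0.35).

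Of the comparisons of clusters, that of dendritic with macrophage clusters had the most members called. In 7 libraries 7 of the 8 tested members were called lower, against 10.6% of 9710 genes called lower and 18.1% called in all, and the median of the members was -2.37 on the log2 scale beside -0.05 for all genes. Tlr7 was at 0 and 7.11 CPM in the brain 24 h replicates, 7.52 CPM at 72 h, 7.94 and 0.841 CPM in control and 24 h pia, and 6.27 and 4.05 CPM in control and 24 h dura, with no overlap with the 28.5 to 110.4 CPM of the macrophage clusters. Its log2 fold change was -3.38 ± 0.31 (edgeR adjusted p 2.93e-06). Ly96 was at 3.55 to 20.4 CPM in the dendritic clusters, again without overlap with the 21.2 to 145 CPM of macrophages, and differed by -2.71 ± 0.19 (adjusted p 1.07e-07).

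Cd14 differed by -2.70 ± 0.36 (edgeR adjusted p 0.000547), Tlr4 by -2.64 ± 0.28 (5.11e-06), Tlr13 by -2.09 ± 0.24 (9.19e-06), Tlr2 by -1.76 ± 0.26 (0.000270) and Tlr1 by -1.42 ± 0.32 (0.00308). The dendritic level was below that of the macrophages in 7 of 7 libraries for each of these. Myd88 was the exception and was higher in dendritic clusters in 7 of 7 libraries, by 0.36 ± 0.13 (adjusted p 0.0447), which is under the fold of 2. The dendritic clusters held 468 to 4032 CPM of 5 dendritic markers, and Xcr1 was at 0 in brain 24 h replicate 1. Of the pathway, Sigirr (3.75 ± 0.40), Ikbkb (1.17 ± 0.18) and Cyld (1.05 ± 0.23) were called higher and Tlr6 (-1.51 ± 0.39), Irak3 (-1.23 ± 0.32) and Ikbke (-2.17 ± 0.64) lower. Ikbke lost its call under 4 alternatives (adjusted p 0.0557 to 0.295) and Irak3 with kit version 2 (0.123), and Ikbkb and Cyld fell under the fold of 2 in 1 and 3 alternatives. Unc93b1 and Ly86 were lower without reaching a fold of 2 (-0.78 ± 0.14 and -0.86 ± 0.18, adjusted p 0.000450 and 0.00167), and the receptor list had a median of -0.82.

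SAMC, the cluster that the study describes as arising after stroke, could be compared with the macrophage clusters in 4 libraries, brain at 24 h (2) and 72 h and pia at 24 h. edgeR called 224 of 9557 genes (2.34%) and none of the 8 members tested. Tlr13 was higher in SAMC in 4 of 4 libraries, by 0.49 ± 0.18 (adjusted p 0.164). Cd14 differed by 0.42 ± 0.30 (adjusted p 0.605) and Tlr2 by -0.29 ± 0.19 (adjusted p 0.584). Ly96, Tlr4, Tlr1, Tlr7 and Myd88 spanned -0.55 to 0.31, and no gene of the pathway lists was called. A p that misses the threshold does not show that the levels were alike.

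B cells, known for Tlr7, Tlr9 and the Cd180 and Ly86 pair, were compared with the other lymphoid clusters in 6 libraries. Only 5 members passed the filter. Ly96 was at 11.0, 11.5, 53.4, 26.6, 25.8 and 40.1 CPM in B cells of brain 24 h replicate 2, brain 72 h, control and 24 h pia, and control and 24 h dura, and at 9.66, 4.15, 20.2, 11.4, 15.5 and 13.2 CPM in the other lymphoid clusters of these libraries. It was higher in B cells in 6 of 6 libraries, by 1.51 ± 0.36 (edgeR adjusted p 0.00104), and was the 1 member called, beside 8.29% of 7344 genes called higher and 20.6% called in all. Without dura 24 h, and with kit version 2 alone, Ly96 did not pass the filter on low counts and no member was called. Cd14, Tlr2, Tlr1 and Myd88 lay between -0.05 and 1.21, with adjusted p-values of 0.0540 or more. Scaling by library size alone gave 457 genes higher and 1253 lower in place of 609 and 906.

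Of the receptors and partners in B cells 4 of 5 tested were called higher and none lower, with a list median of 2.92 beside -0.09 for all genes. Cd180 was 5.76 ± 0.36 higher (edgeR adjusted p 1.76e-16), Ly86 3.48 ± 0.23 (1.24e-15), Unc93b1 2.92 ± 0.22 (3.09e-13) and Cnpy3, another chaperone of the receptors, 1.26 ± 0.27 (0.000226). Irf5 (2.07 ± 0.29) was the 1 higher of 15 adaptors and 4 were lower, Nfkb1 (-1.31 ± 0.23), Irak2 (-1.20 ± 0.26), Tab2 (-1.17 ± 0.28) and Irf7 (-1.02 ± 0.29). Of 9 inhibitors Nfkbie and Irak3 were higher and 5 were lower, led by Tnfaip3 (-3.15 ± 0.21), the gene of the A20 protein, and Nfkbia (-1.26 ± 0.13). In single libraries Unc93b1 spanned 223 to 464 CPM in B cells and 38.6 to 87.2 CPM in the other lymphoid clusters.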

How the data were processed

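UMI counts per gene and cell barcode of 8 10x libraries were used as the authors deposited them, made with Cell Ranger 6.0 on mm10 per the submitters' processing notes. Kit version 3 is stated for brain 72 h and dura 24 h and version 2 for the rest. The barcode overlap given above does not follow these kits. Brain 24 h replicate 2 shared barcodes with brain at 72 h alone, and dura at 24 h mainly with libraries of stated version 2. Fits with kit version 2 alone left out the libraries of stated version 3 and kept brain 24 h replicate 2. They are therefore checks on the stated kit only. The authors' cluster names came from cells filtered by genes and mitochondrial share, with doublets removed by scDblFinder, and were not rebuilt. UMIs of the 30406 genes listed in every library, matched by Ensembl identifier since 597 had another symbol in the other list, were summed per library and class for sums of at least 30 cells. Tests on these sums used the quasi-likelihood F test of edgeR 4.0.16 (TMM factors, filterByExpr, two-sided, Benjamini-Hochberg over all genes tested), with tissue, stroke or library as covariates. Libraries were taken as replicates, and with 1 library for most conditions the p-values measure only the spread between these samples. DESeq2 1.42.0, library size alone, no filter, a shorter set of libraries by kit or gene list and each library left out were the alternatives. Ratios between classes within a library had 0.5 counts added, and ratios of a stroke library to its control were taken without. Both tools were tested on simulated data. In the simulated stroke and tissue comparisons edgeR recovered 0% to 35.5% of 200 genes changed 4-fold, and DESeq2 36% to 61%. Of their calls 6.45% to 100% and 14.3% to 31.4% were false. In comparisons of clusters the 2 tools recovered 87% to 91.5% and 74% to 87%, with 5.18% to 12.1% and 1.19% to 5.13% false. DESeq2 counts for stroke and tissue are therefore given as alternatives only.

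The members and all gene lists were chosen with earlier results of these data known. All members are named. A planned microglia marker was left out of the marker sums and is not reported here. From the pathway lists up to 4 genes called higher and up to 4 called lower per comparison with the smallest adjusted p are named, with Tlr6, Ly86, Cd180 and Unc93b1, and from the correlations the 3 nearest genes. Positions are from GENCODE M21. Scripts ran in R 4.3.3 and in Python 3.11.15 with pandas 2.3.3, numpy 2.4.6, scipy 1.17.1 and matplotlib 3.10.9.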

Additional observations from a re-analysis of the deposited data

Results flagged for a closer look

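Cd14 in the dendritic clusters differed from the control in opposite directions at 24 h in the 2 border tissues. In pia it was at 2417 CPM in the control library and 1139 CPM at 24 h, a log2 ratio of -1.09 (95% counting interval -1.20 to -0.97). In dura it was at 1215 CPM in the control and 2513 CPM at 24 h, a log2 ratio of 1.05 (0.96 to 1.14). The 2 clusters of this class did not keep their shares, since pia held 57 mDC1 and 115 mDC2 cells in the control and 226 and 190 at 24 h, and dura 205 and 206 in the control and 181 and 222 at 24 h. In mDC2 Cd14 was at 3055 and 1842 CPM in control and 24 h pia and at 2190.1 and 4208 CPM in dura, and in mDC1 at 540.1 and 539.5 CPM in pia and 241 and 503 CPM in dura. The part of the mix in the class values was not tested. Each group has 1 library, so the difference between the tissues was not tested.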

How the results depend on the processing

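Of 77 fold changes of members, 20 changed sign under at least 1 alternative, none of them called, with values from -0.35 to 0.28. Of the 12 called, 9 stayed called under every alternative. Ly96 in B cells stayed called in the 9 in which it was tested and missed the filter in 2. Of the 65 not called 12 were called under one. Genes called after stroke numbered 63 by DESeq2 and 184 with no filter over all cells, 17 and 73 in macrophages, and 7 and 11 in microglia. For pia against brain they were 511 by DESeq2, 10 by library size alone and 747 with no filter, with 1 member called by DESeq2 and 2 with no filter. For dura these were 722, 48 and 938, with 2 members each by DESeq2 and with no filter. Macrophages against microglia gave 574 genes and 2 members with the longer gene list, and 2 members with kit version 2. SAMC gave 125 genes by DESeq2, 346 with no filter, 1 with the longer gene list and 134 with kit version 2. B cells gave 922 genes and 0 members with kit version 2, and 2 members with no filter. With 1 library left out, the genes called ranged from 0 to 52 over all cells, 0 to 136 in macrophages and 0 to 141 in microglia after stroke, 0 to 1941 for pia, 0 to 2352 for dura and 134 to 356 for SAMC, and the highest of each but SAMC came without brain 24 h replicate 2. The members called then ranged from 0 to 3 in microglia after stroke, 0 to 2 for pia and 0 to 3 for dura. The highest of these came without brain 24 h replicate 2, where 2.23%, 20.6% and 25.0% of all genes tested were called. For macrophages against microglia they ranged from 1 to 2, and for B cells from 0 (without dura 24 h) to 2 (without control pia). With all libraries in, 10.4% and 20.6% of all genes were called there. Counts of members called under the alternatives are not read as particular to the members. Cd14 in Granulo_2 ranged from -0.68 to 0.052 and turned positive without control dura. In Granulo_2, Ly96 and Tlr1 lost their calls with kit version 2. The causes were not tested. Libraries could not be paired in the comparisons of stroke and tissue because the labels number the replicates of brain at 24 h alone. The comparisons of clusters were paired within libraries, with library as a block. Tlr9, Tlr4 and Tlr1 rest on few UMIs, and depth limits them most.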
